A study of Homo sapiens with 63 samples.

Results

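The mRNAs of 10 enzymes of glycolysis were followed across polysome gradients of HEK293 cells: GPI, ALDOA, TPI1, GAPDH, PGK1, PGAM1, ENO1, PKM, LDHA and LDHB. They were chosen by name, and all 10 were among the 11074 gene rows of the deposited table. HEK293 is a human embryonic kidney cell line. One set of cells was kept for 2 h without serum but with amino acids, another for 1 h without amino acids in EBSS with vitamins and serum, and a log phase set kept both serum and amino acids. All 3 sets received cycloheximide, which holds ribosomes on mRNA, for 10 min before lysis. Each lysate was spread over 1 gradient, and poly(A) RNA of fractions 3 to 22 was sequenced, which gave 20 libraries per condition and 60 in all. Every condition rests on 1 gradient, so none of the differences could be tested against replicates and no p-values are given. The amino acid-starved cells were also in another base medium and were starved for a shorter time, and these features cannot be told apart from the loss of amino acids.

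Glycolysis splits glucose into pyruvate in the cytosol. GPI turns glucose 6-phosphate into fructose 6-phosphate, ALDOA splits the phosphorylated sugar, and TPI1 interconverts the triose phosphates that result. GAPDH oxidises glyceraldehyde 3-phosphate, PGK1 makes ATP, PGAM1 and ENO1 rearrange the product, and PKM makes ATP and pyruvate. LDHA and LDHB are subunits of lactate dehydrogenase, which interconverts pyruvate and lactate. In a polysome gradient an mRNA with more ribosomes travels farther. No label says whether high fraction numbers mean heavy material, and positions are described by fraction number alone. Ribosomal protein mRNAs, which commonly begin with a run of pyrimidines (C or T), are known to leave polysomes when growth signals are withdrawn, and they are given below beside the enzymes.

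Letters at annotated starts are given for the enzymes whose distributions differed most between gradients. Each stretch below holds 15 bases before an annotated start and 15 from it onwards, 5′ to 3′ on the gene's strand, from RefSeq on GRCh38.p14, and capitals mark an unbroken run of C and T that begins at the start. The LDHB stretch lies at chr12:21657828-21657857 on the minus strand. The GAPDH stretch lies at chr12:6535249-6535278 on the plus strand and at a start inside the annotated gene. The TPI1 stretches lie at chr12:6867516-6867545 and chr12:6868090-6868119 on the plus strand. The PGK1 stretch, from the enzyme whose mRNA lay at the highest-numbered position in every gradient, is at chrX:78104233-78104262 on the plus strand.
LDHB: gccccctcctccctcCTTgcagagccggcg
GAPDH: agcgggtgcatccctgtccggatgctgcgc
TPI1, first start: tggccgcgactgcgcgcagacactgacctt
TPI1, second start: cgtagccccagactcCTCCCCTTCCTCgcc
PGK1: tcctgcccgcgcggtgttccgcattctgca
LDHB began with 3 pyrimidines, inside a run of 17 that crossed the start. The second TPI1 start began with a run of 12, and the GAPDH, PGK1 and first TPI1 starts shown did not begin with C or T. The annotated GAPDH gene begins at 6534517 and the annotated TPI1 gene at 6867420, before the starts shown, and the letters there were not read. The GAPDH and TPI1 stretches therefore do not show how transcripts from other starts of these genes begin. A C at the start followed by 4 letters that were each C or T was searched for on the gene's strand only. It stood at 1 of the 14 annotated starts of the 10 enzymes (7.14%), the second start of TPI1. The same search found it at 47 of 78 starts of cytosolic ribosomal protein genes (60.3%), at 5.41% of 12619 starts of the genes measured here and at 4.07% of all 35116 annotated starts. A run of at least 10 pyrimidines across the start, a search added after the LDHB letters were seen, was found at 3 of the 14 enzyme starts (LDHB, the second start of TPI1 and 1 of the 3 starts of ALDOA), at 55.1% of ribosomal protein starts and at 2.9% of all starts. Which start these cells used was not measured, and these letters are a description only.

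GAPDH, TPI1 and LDHB all lie on chromosome 12. GAPDH spans 6534517 to 6538371, TPI1 spans 6867420 to 6870948 and LDHB spans 21635342 to 21657842 on GRCh38.p14. The other 7 enzymes lie on 7 further chromosomes, with PGK1 on the X chromosome. RefSeq lists 65 pseudogenes named after GAPDH, 13 after PGAM1, 6 after LDHA, 5 after PKM, between 2 and 4 after PGK1, TPI1, ALDOA, ENO1 and LDHB, and none after GPI. No row of the deposited table was named after such a copy. How the counting treated reads shared with copies was not tested, so the levels of GAPDH and PGAM1 in particular are uncertain.

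The deposited values are called signal here. They were named TPM, a unit per transcript length, but the gene total of a fraction ran between 36830 and 66982000, so the authors also scaled whole fractions in a way not given in the sources used here. Sequencing depth is not given either, so no counting error is attached to a value. The gene total was largest in fraction 9 in both starved gradients and in fraction 18 in log phase. Because of that scale, shifts and levels are given on 2 footings: as deposited, and with every fraction brought to the same total (equal fraction totals), which a scale given to whole fractions cannot affect. The second footing gives a fraction with little signal as much weight as a full one. Neurofilament and vimentin mRNAs listed for HEK293 cells were present, with NEFM at 507 and 458 parts per 1000000 (ppm) of the gradient total in the serum-starved and amino acid-starved cells and at 346 in log phase. NEFL and VIM lay between 269 and 380.5 ppm, while INA and ENO2, also on that list, were low, between 1.68 and 4.18. PTPRC, ALB, HBB, COL1A1 and PECAM1, markers of blood, liver, red cells, fibroblasts and endothelium, had no row in the table.

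GAPDH differed most of the 10 enzymes between the starved and growing cells. In log phase it was concentrated in the highest-numbered fractions, and in both starved gradients it was spread over nearly the whole gradient. Fractions 18 to 22 held 35.8% of the GAPDH signal after serum starvation and 20.9% after amino acid starvation, against 86.8% in log phase. Fractions 8 to 12 held 29.3% after serum starvation and 36.7% after amino acid starvation, against 1.33% in log phase. The same middle fractions held 45.7%, 55.0% and 12.8% of all gene signal in the serum-starved, amino acid-starved and log phase gradients, so in the deposited signal part of this difference was common to all mRNAs.

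**Figure D1:**
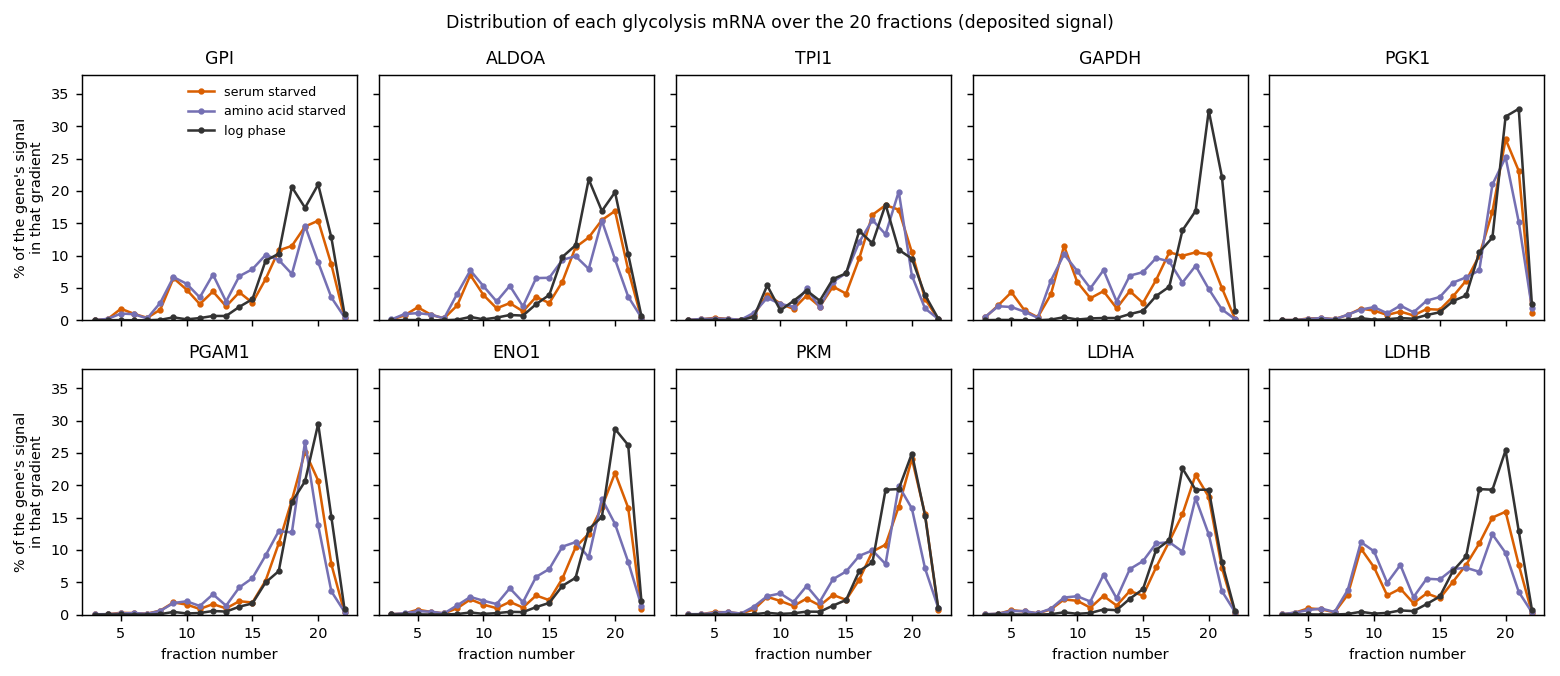
Percent of each enzyme's own signal (vertical axis) in each of fractions 3 to 22 (horizontal axis) in the serum-starved, amino acid-starved and log phase gradients, as deposited, with 1 gradient per line. Fraction 9 holds 11.5% and 10.2% of GAPDH after serum and amino acid starvation, against 0.475% in log phase, and 10.2% and 11.2% of LDHB, against 0.426%; ALDOA (6.99% and 7.71%) and GPI (6.52% and 6.68%) have smaller maxima there after starvation, and the TPI1 lines lie close together.

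The composition of single fractions, which the authors' scale cannot alter, showed the same for GAPDH. Its share of a fraction's signal ran between 1655 and 10650 ppm of that fraction after serum starvation (median 3206), between 1721 and 7781 after amino acid starvation (median 3954), and between 222 and 10460 in log phase (median 698). In log phase the share climbed steeply from fraction 12 onwards and was highest in fraction 21. In the starved gradients it was highest in fraction 4. There it was 10650 ppm after serum starvation and 7781 after amino acid starvation, against 1614 in log phase. Over fractions 8 to 12 the mean share was 2150 ppm after serum starvation and 2170 after amino acid starvation, against 262 in log phase. GAPDH was above its log phase share in 17 of 20 fractions in either starvation. Fractions 20, 21 and 22 were the exceptions after both. The log2 ratio was highest in fraction 12, at 3.43 after serum starvation and 3.59 after amino acid starvation.

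The mean position of a gene, its fraction number weighted by signal, puts these distributions on one scale. GAPDH lay at fraction 14.28 after serum starvation and 13.51 after amino acid starvation, against 19.19 in log phase. Among the 10889 genes tested this was the 21.1st percentile after serum starvation and the 13.7th after amino acid starvation, against the 99.8th in log phase. Genes were tested if their mean signal was at least 5 in each gradient and their signal was above 0 in at least 15 of the 20 fractions, and all 10 enzymes passed. A shift is the starved minus log phase position, less the median difference of all tested genes. That median was -1.35 fractions for serum starvation and -1.8 for amino acid starvation as deposited, but 1.54 and 1.72 with equal fraction totals, so whether the median mRNA lay lower or higher after starvation depended on the scale. The GAPDH shift was -3.57 fractions after serum starvation (-4.16 in odd and -3.01 in even fractions) and -3.89 after amino acid starvation (-4.06 in odd and -3.72 in even fractions). The agreement of odd and even fractions shows the spread within a gradient, not between gradients. With equal fraction totals, where the median difference taken off was 1.54 and 1.72, the GAPDH shifts were -6.59 and -6.84. Uncentred, the GAPDH position differed by -4.92 and -5.69 fractions as deposited and by -5.04 and -5.12 with equal fraction totals, nearly the same on both footings. A size rule, which is not a test, was met by a shift of 1 fraction or more that reached 0.5 with the same sign in the odd fractions and in the even ones.

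LDHB, the lactate dehydrogenase subunit abundant in heart, followed with a smaller difference of the same direction. Its share of a fraction's signal ran between 52.2 and 5042 ppm after serum starvation (median 988), between 93.2 and 4633 after amino acid starvation (median 1268), and between 77.1 and 4884 in log phase (median 465). The upper ends were alike, and LDHB was above its log phase share in the middle of the gradient and in most low-numbered fractions. Over fractions 8 to 12 the mean was 888 ppm after serum starvation and 943 after amino acid starvation, against 218 in log phase. Single fractions among these ran between 564 and 1060 ppm after serum starvation, between 649 and 1210 after amino acid starvation and between 162 and 315 in log phase. The position was 15.68 after serum starvation and 14.44 after amino acid starvation, against 18.60 in log phase. The LDHB shift was -1.57 fractions after serum starvation and -2.36 after amino acid starvation, or -3.01 and -3.63 with equal fraction totals. Uncentred it was -2.92 and -4.16 as deposited and -1.47 and -1.9 with equal fraction totals.

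LDHA, the subunit abundant in skeletal muscle, had a different distribution from LDHB after starvation, although the products assemble into the same enzyme. Its position was 17.36 after serum starvation and 16.32 after amino acid starvation, against 18.17 in log phase. Fractions 8 to 12 held 9.19% and 14.5% of LDHA in the serum-starved and amino acid-starved gradients, against 1.53% in log phase; for LDHB the values were 27.5% and 37.3%, against 1.54%. The mean LDHA share in these fractions was 131 and 144 ppm after serum and amino acid starvation, against 126 in log phase. The LDHA shift was 0.54 and -0.04 fractions, within the middle 50% of tested genes (-0.47 to 0.44) for amino acid starvation and above it (-0.45 to 0.43) for serum starvation. On equal fraction totals it was -1.35 and -1.91, smaller in size than that of LDHB in both.

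**Figure D2:**
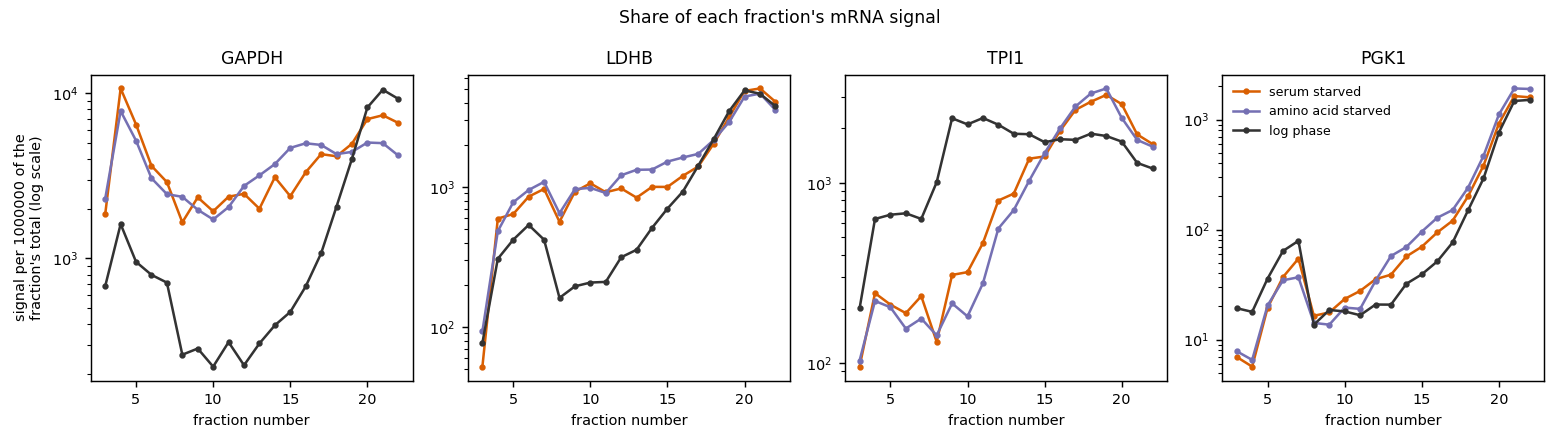
Signal of GAPDH, LDHB, TPI1 and PGK1 per 1000000 of each fraction's total (vertical log axis) against fraction number, for the serum-starved, amino acid-starved and log phase gradients. GAPDH and LDHB lie above log phase through the middle fractions after both starvations, TPI1 lies below it up to fraction 15, and PGK1 climbs with the fraction number from fraction 13 onwards in all 3 gradients, up to fraction 21.

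TPI1 differed in the opposite direction from GAPDH and LDHB. Its share of a fraction's signal ran between 95.7 and 3067 ppm after serum starvation (median 834), between 103 and 3330 after amino acid starvation (median 632), and between 201 and 2284 in log phase (median 1709). In log phase the share was nearly level, between 1006 and 2284 ppm over fractions 8 to 22, and highest in fraction 11. In the starved gradients it climbed with the fraction number and was highest in fraction 19, at 3067 and 3330 ppm after serum and amino acid starvation, against 1815 in log phase. Over fractions 8 to 12 the mean was 404 and 275 ppm after serum and amino acid starvation, against 1950 in log phase. TPI1 was below its log phase share in 13 of 20 fractions in either starvation.

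The TPI1 position in the deposited signal barely differed, at 16.58 after serum starvation and 16.27 after amino acid starvation, against 16.25 in log phase. Relative to other mRNAs it differed more: TPI1 stood at the 78.9th and 87.1st percentile of tested genes after serum and amino acid starvation, against the 29.2nd in log phase. Its shift relative to the median gene was 1.68 fractions (1.88 odd, 1.51 even) after serum starvation and 1.82 (2.2 odd, 1.45 even) after amino acid starvation, and 1.55 and 1.61 with equal fraction totals. Without centring on the median gene it was 0.33 and 0.02 as deposited, and 3.09 and 3.33 with equal fraction totals.

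PGK1 stayed in the highest-numbered fractions in all 3 gradients. Fractions 18 to 22 held 79.0% of its signal after serum starvation and 71.0% after amino acid starvation, against 89.9% in log phase. Its share of a fraction ran between 5.68 and 1637 ppm after serum starvation, between 6.54 and 1920 after amino acid starvation and between 13.7 and 1511 in log phase. Its position of 18.57 and 18.07 after serum and amino acid starvation, against 19.58 in log phase, was at the 100th percentile, to 3 digits, in each gradient. The PGK1 shift was 0.34 and 0.29 fractions after serum and amino acid starvation, but -1.43 and -1.51 with equal fraction totals.

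Of the enzymes early in the pathway, GPI and ALDOA as deposited met the size rule as lower after amino acid starvation but not after serum starvation. With equal fraction totals both met it as lower in both starvations, beside 13.1% and 16.0% of all tested genes. GPI was then at -2.77 and -3.17 after serum and amino acid starvation, and ALDOA at -2.2 and -2.68. GPI was at position 16.13 and 15.19 after serum and amino acid starvation, against 18.39 in log phase. Its shift as deposited was -0.91 after serum starvation and -1.4 after amino acid starvation. ALDOA was at 16.24 and 15.13 after serum and amino acid starvation, against 18.18 in log phase, and its shift as deposited was -0.59 and -1.24. The ALDOA shift after serum starvation differed between odd (-1.03) and even (-0.20) fractions. Over fractions 8 to 12 the mean ALDOA share was 546 and 605 ppm after serum and amino acid starvation, against 267 in log phase, and that of GPI was 122 and 112, against 46.2.

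PGAM1, ENO1 and PKM did not meet the size rule in the deposited signal, with ENO1 after amino acid starvation farthest from the median gene. PGAM1 was at position 17.92 and 17.21 after serum and amino acid starvation, against 18.88 in log phase. ENO1 was at 17.87 and 16.81, against 19.24. PKM was at 17.82 and 16.83, against 18.75. Their shifts ran between -0.02 (ENO1) and 0.42 (PKM) after serum starvation and between -0.63 (ENO1) and 0.13 (PGAM1) after amino acid starvation. ENO1 held the largest share of any single fraction, 11170 ppm after serum starvation and 11010 after amino acid starvation, against 10720 in log phase, each time in fraction 22.

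By the size rule 2 of the 10 enzymes were lower after serum starvation (GAPDH and LDHB), beside 9.86% of all tested genes. 1 was higher (TPI1), beside 5.7% of all tested genes. After amino acid starvation 4 were lower (GAPDH, ALDOA, LDHB and GPI), beside 9.57% of genes, and 1 was higher (TPI1), beside 6.84% of genes. The median shift of the 10 was 0.16 fractions after serum starvation, with 5 below 0, and -0.38 after amino acid starvation, with 7 below 0, against 0 for all tested genes by construction. With equal fraction totals 9 of 10 met the rule as lower in either starvation, beside 13.1% of all tested genes after serum starvation and 16.0% after amino acid starvation. On that footing 1 was higher in each, beside 12.1% and 13.0% of genes, and the medians were -1.54 and -2.0. With equal totals the median gene itself lay at higher-numbered fractions after starvation, and uncentred PGK1 (0.11 and 0.22), ENO1 (-0.01 and -0.27), PKM (0.25 and -0.07), LDHA (0.20 and -0.19) and PGAM1 (0.03 and -0.28) were close to 0. The direction of PGK1 and PGAM1 in both starvations, and of PKM and LDHA after serum starvation, therefore depended on the scale of the fractions. Both footings put GAPDH lowest of the 10, LDHB next and TPI1 highest in either starvation. The 2 starvations share the log phase gradient, so their agreement is not independent. With log2 of the signal as the weight, which gives weak fractions more say, no enzyme met the rule in either starvation. Few genes did on that weight. Of all tested genes 0.496% and 0.652% were lower and 0.129% and 0.119% higher after serum and amino acid starvation. The GAPDH shift was -0.32 and -0.28, that of LDHB -0.16 and -0.16, and that of TPI1 0.63 and 0.71. On this weight GAPDH was not the lowest of the 10 enzymes. GPI lay below GAPDH in both starvations, at -0.33 after amino acid starvation, so the order seen on both footings was not kept.

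**Figure D3:**
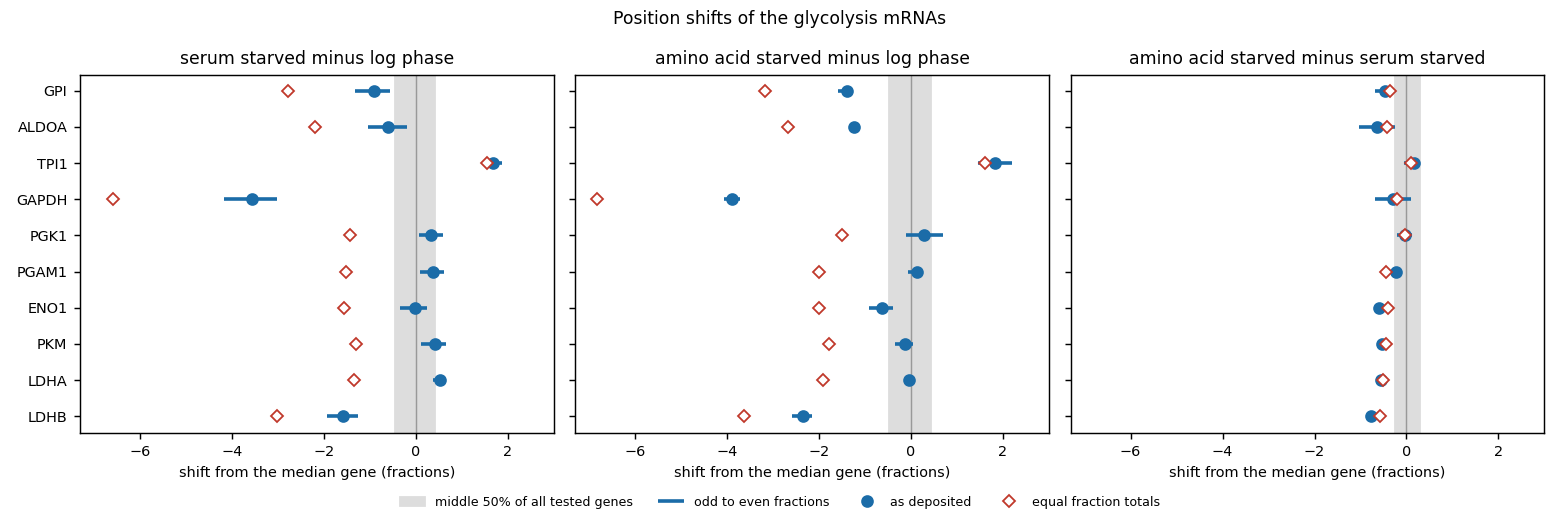
Shift of each enzyme (horizontal axis, fractions, relative to the median tested gene) for serum starved minus log phase, amino acid starved minus log phase, and amino acid starved minus serum starved. Filled points are the deposited signal, bars join odd and even fractions, diamonds have equal fraction totals, and the grey band holds the middle 50% of tested genes. GAPDH is at -3.57 and -3.89 against log phase and TPI1 at 1.68 and 1.82, and the shifts between the starvations lie between -0.78 and 0.16.

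The starved gradients were also compared directly. No enzyme met the size rule, beside 1.06% of tested genes that were lower and 2.01% that were higher after amino acid than after serum starvation. The shifts were all smaller than 1 fraction but mostly of the same sign, with 9 of 10 below 0. Their median was -0.5 fractions (-0.41 with equal fraction totals). As deposited, the middle 50% of tested genes lay between -0.25 and 0.30, so the enzyme median was below that range. By percentile of tested genes the enzymes ran between 3.1 (LDHB) and 64.4 (TPI1). LDHB had the lowest shift of the 10 (-0.78), followed by ALDOA (-0.63) and ENO1 (-0.60), and TPI1 had the highest (0.16). The GAPDH shift was -0.30, with 0.09 in odd and -0.69 in even fractions, so the fractions did not give it 1 direction.

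A ratio of the mean share in fractions 18 to 22 over that in fractions 8 to 12, a measure added after the data were seen, does not depend on the scale of the fractions. Its starved minus log phase difference was again lowest for GAPDH and highest for TPI1 among the 10 in either starvation. The log2 ratio for GAPDH was 1.48 after serum starvation and 1.08 after amino acid starvation, against 4.69 in log phase. Among the 10889 tested genes its difference from log phase ranked 3 from the lowest after serum starvation and 1 after amino acid starvation. LDHB had a ratio of 2.1 and 1.9, against 4.11 in log phase, and its difference ranked 32 and 26 from the lowest. TPI1 had a ratio of 2.58 and 3.13, against -0.31 in log phase, and stood at the 99.9th and 99.7th percentile. PGK1 had a ratio of 5.24 and 5.74, against 5.5 in log phase. The median tested gene had 1.4 and 1.68 after serum and amino acid starvation, against 0.79 in log phase.

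Fractions 3 to 7, at the low-numbered end, held little of the signal. GAPDH had a larger part of its signal there than all genes together had after starvation, and a smaller one in log phase. They held 9.08% of GAPDH after serum starvation and 6.45% after amino acid starvation, against 0.125% in log phase. All gene signal in these fractions was 5.69% and 4.71% in the serum-starved and amino acid-starved gradients, against 0.299% in log phase. The log2 ratio of the mean share in fractions 3 to 7 over that in fractions 8 to 12 was 1.24 and 0.94 for GAPDH after serum and amino acid starvation, against 1.86 in log phase, at or above the 98.0th percentile of tested genes in each gradient. ALDOA stood at the 98.5th and 94.2nd percentile of this ratio after serum and amino acid starvation, against the 91.5th in log phase. TPI1 was at the other end, at the 16.6th and 17.1st percentile, against 0.34 in log phase.

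The median position of the 10 enzymes was above that of all tested genes in each gradient. It was 16.97 after serum starvation and 16.3 after amino acid starvation, against 18.68 in log phase. The median of all tested genes was 15.62 and 15.12 in the serum-starved and amino acid-starved gradients, against 16.94 in log phase. Above it were 9 of the enzymes after serum starvation, 8 after amino acid starvation and 9 in log phase. Such positions were not particular to these enzymes among the lists described below. The median was 17.23 and 16.45, against 18.23, for pyruvate dehydrogenase genes and 16.59 and 15.92, against 18.33, for the citric acid cycle. It was lower for the carriers, at 15.46 and 15.29, against 16.81. Together the 10 enzyme mRNAs held 1.07% of all gene signal after serum starvation and 0.946% after amino acid starvation, against 1.33% in log phase. Within single fractions their summed share was highest in fraction 21 after serum starvation (3.76%) and in log phase (3.74%), and in fraction 22 after amino acid starvation (3.2%). In the starved gradients there was also a maximum in fraction 4, of 1.35% and 1.04% after serum and amino acid starvation, against 0.389% in log phase, to which GAPDH contributed most.

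Levels are the signal summed over a gradient per 1000000 of its total. GAPDH was at 3341 ppm after serum starvation and 3150 after amino acid starvation, against 2542 in log phase. Relative to the median gene, with 1 added to each level, this was a log2 ratio of 0.83 (0.84 odd, 0.81 even) after serum starvation and 0.90 (0.80 odd, 0.98 even) after amino acid starvation, the highest of the 10. LDHA was at 578 and 504 ppm after serum and amino acid starvation, against 1202 in log phase, with log2 ratios of -0.63 and -0.66. PKM was at 402 and 323, against 800 in log phase, with log2 ratios of -0.56 and -0.72. The other 7 enzymes had log2 ratios between -0.27 and 0.13 in both starvations.

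As deposited and centred, no enzyme met the level rule, a log2 ratio of at least 1 with at least 0.5 in odd and even fractions. Beside that, 0.903% of genes with a sufficient level were lower and 3.06% higher after serum starvation, and 2.84% were lower and 4.96% higher after amino acid starvation. Between the starvations, where no enzyme met the rule either, the shares of genes were 0.0401% lower and 0.187% higher in amino acid-starved cells. The levels rest on the scale of the fractions more than the composition does. With equal fraction totals GAPDH met the level rule as higher, with a log2 ratio of 1.11 after serum starvation and 1.0 after amino acid starvation, beside 2.01% and 2.36% of genes. The ratio of LDHA was then -0.04 and 0.04, and that of PKM 0.24 and 0.17. Without centring LDHA met it as lower in both starvations (-1.06 and -1.25) and PKM after amino acid starvation (-1.31), beside 8.85% of genes after serum starvation and 22.1% after amino acid starvation. In bulk lysates fewer cells of a kind and less of an mRNA per cell cannot be told apart.

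Over the 60 fractions, the profile of an enzyme can be compared with any other mRNA by the correlation of log2 shares (after adding 1). These points share libraries and the common trend along a gradient, so r is a description. The tested genes nearest to GAPDH were EEF1D (r = 0.933), a subunit of a translation elongation factor, BTF3 (0.856), part of the nascent polypeptide-associated complex, RACK1 (0.831), a protein of the small ribosomal subunit, KRT18 (0.83), a keratin, and PSMB4 (0.789), a proteasome subunit. Those nearest to LDHB were DCTN2 (0.977), a dynactin subunit, EEF1A2 (0.966), an elongation factor, the enzyme GPI itself (0.959), ESD (0.957), an esterase, and ACTG1 (0.956), a cytoplasmic actin. Among the enzymes, PKM and PGAM1 were the most alike (r = 0.975), and GAPDH and TPI1 the least (r = -0.061). Every pair with GAPDH or TPI1 had an r of 0.772 or less and every other pair one of 0.841 or more, with LDHA and LDHB at 0.855.

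The other genes of glucose metabolism were taken from lists of pathway members. Their counts stand beside 9.86% and 9.57% of all tested genes that were lower after serum and amino acid starvation and 5.7% and 6.84% that were higher, or 13.1% and 16.0% lower and 12.1% and 13.0% higher with equal fraction totals. Of 31 other glycolysis genes and isozymes, 17 had a row and 16 were tested. After serum starvation 2 were lower by the size rule, PFKM (-1.17), the muscle-type phosphofructokinase, and PGM1 (-1.1), which feeds glucose 1-phosphate into the pathway. 1 was higher, PFKFB2 (1.18), which makes and breaks fructose 2,6-bisphosphate. After amino acid starvation PGM1 (-1.43) and PGP (-1.21), a phosphatase, were lower and none was higher. The highest shift there was that of BPGM (1.05), which makes 2,3-bisphosphoglycerate, below the rule in even fractions. The list's median was 0.03 and -0.22 fractions after serum and amino acid starvation. With equal fraction totals 7 were lower and 1 higher after serum starvation, and 7 lower and 2 higher (BPGM at 1.03 and PFKFB2 at 1.21) after amino acid starvation.

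Of the sugar, lactate and pyruvate carriers, 10 were tested and none met the rule against log phase as deposited, whereas 4 were higher in each starvation with equal fraction totals. Their shifts ran between -0.95 (SLC2A4, a glucose carrier) and 0.77 (SLC16A1, a lactate carrier) after serum starvation, and between -0.43 (BSG, a partner of lactate carriers) and 0.67 (SLC2A3, a glucose carrier) after amino acid starvation. SLC2A3 depended on the scale throughout: its shift was -0.70 and 0.67 after serum and amino acid starvation as deposited and 3.98 and 3.4 with equal fraction totals. Between the starvations it met the rule as higher after amino acid starvation (1.38), but was at -0.54 with equal fraction totals.

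In the pentose phosphate pathway, which branches from glycolysis, 2 of 9 tested genes met the rule in both starvations, PGD and TKT, and both were lower. PGD, which oxidises 6-phosphogluconate, shifted by -3.14 and -3.56 fractions after serum and amino acid starvation, and TKT, the transketolase that returns carbon to glycolysis, by -2.63 and -3.09. These were -4.0 and -4.4 for PGD and -4.43 and -5.24 for TKT with equal fraction totals, where 3 genes of the list were lower after serum starvation and 5 after amino acid starvation, with 0 higher. The highest shift of the list was that of RPIA, a ribose phosphate isomerase, at 0.40 and 0.64.

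Of 11 pyruvate dehydrogenase genes, 2 were lower and 2 higher after serum starvation, and 3 were lower and 2 higher after amino acid starvation. The higher ones were PDHA1 (1.49 and 1.41), a subunit of the complex, and PDK3 (1.33 and 1.46), a kinase that inhibits it. The lower ones were the phosphatase genes PDP1 (-1.61 and -1.47) and PDP2 (-1.94 and -1.93) and, after amino acid starvation, PDPR (-1.35). None of these 5 genes kept its call with equal fraction totals. There PDHA1 was at -0.07 and -0.27, PDK3 at 0.71 and 0.46, PDP1 at -0.07 and 0.55 and PDPR, after amino acid starvation, at -0.81, while PDP2 met the rule in the opposite direction at 3.23 and 2.51.

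In the citric acid cycle, 20 genes were tested, of which 2 were lower and 1 higher after serum starvation and 6 lower and 1 higher after amino acid starvation. The counts were 6 lower and 2 higher, and 9 lower and 2 higher, with equal fraction totals. CS, the citrate synthase, shifted by -3.16 and -3.11 fractions, and by -3.6 and -3.69 with equal fraction totals. OGDH, a subunit of the 2-oxoglutarate dehydrogenase complex, was at -1.57 and -2.75, but at 3.75 and 2.08 with equal fraction totals. IDH1, the cytosolic isocitrate dehydrogenase, was higher at 1.5 and 1.37, but missed the rule with equal fraction totals, at 0.61 and 0.72. IDH2, IDH3G and SUCLG1 were also lower after amino acid starvation, between -1.44 (IDH3G) and -1.19 (IDH2).

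**Figure D4:**
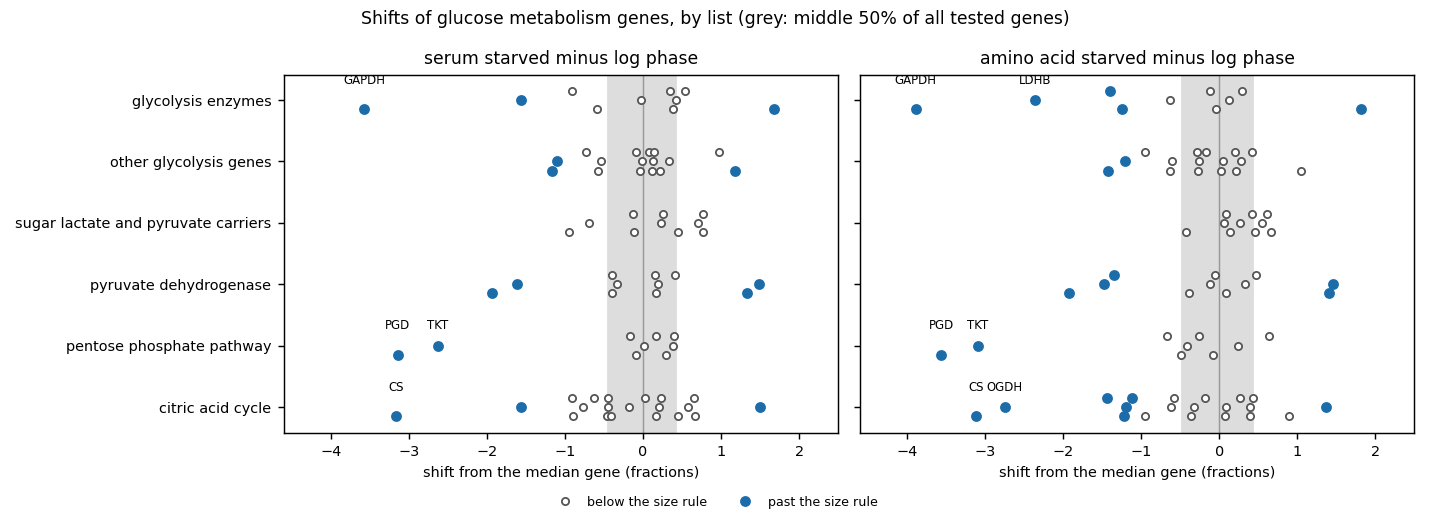
Shift of every tested gene (horizontal axis, fractions, relative to the median tested gene) in each list of glucose metabolism genes, for serum starved minus log phase and amino acid starved minus log phase, from the deposited signal. Filled points met the size rule and the lowest are named; GAPDH, PGD, TKT and CS are the lowest, between -3.57 and -2.63 after serum starvation.

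The ribosomal protein mRNAs give the size of a shift against which GAPDH can be read. Of 79 cytosolic ribosomal protein genes, 78 were lower after serum starvation and 77 after amino acid starvation, with median shifts of -3.02 and -3.11 fractions. The GAPDH shift of -3.57 and -3.89 lay within their range, which ran between -4.62 and -0.26 after serum starvation and between -4.77 and 0.42 after amino acid starvation. The positions differed, however. In log phase the median ribosomal protein mRNA lay at 15.94, below the median gene at 16.94, and GAPDH lay at 19.19. On equal fraction totals the median shift of the ribosomal protein mRNAs was -2.76 and -3.03, against -6.59 and -6.84 for GAPDH.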

How the data were processed

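The 10 enzymes, the pathway lists and the size rules were chosen with earlier results of these data known. HEK293 poly(A) libraries were made with a stranded kit, per the labels' protocols. The submitters' processing notes name kallisto 0.44.0, sleuth 0.29.0 and hg38. The signal deposited by the authors is a table of 1 value per gene and fraction, named TPM but scaled by fraction. Of the 63 samples in the labels, the 60 fractions were used, and the 3 lysates were not analysed here. The 29 ERCC rows and a luciferase row were left out of gene totals. Fractions were compared as deposited, with equal totals, or divided by summed ERCC signal. No test was possible with 1 gradient per condition. The position measure was tried on data simulated from the log phase gradient alone. Such data cannot show how it behaves when fraction totals differ between gradients. Alternatives were each left-out fraction, the outermost fractions removed, log2 weights, the median fraction of a gene's signal, no centring, no filter and a stricter rule. Named genes were all 10 enzymes, the list members past the rule or lowest and highest in their list, and the 5 genes nearest to GAPDH and LDHB; ranks, member pairs and letters at starts are descriptive. Protein sequences were not used here, and 1 list member past the rule is not reported by name. Computation used Python 3.11.15, numpy 2.4.6 and pandas 2.3.3.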

Additional observations from a re-analysis of the deposited data

How the results depend on the processing

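The scale of the fractions limits these results most. With equal fraction totals the median position of the enzymes was 17.35 and 17.25 in the serum-starved and amino acid-starved gradients and 18.15 in log phase; with ERCC scaling it was 17.66, 17.05 and 19.21; with log2 weights 13.39, 13.35 and 14.47; and as the median fraction of each gene's signal 18.04, 16.98 and 18.99. Leaving out single fractions gave 16.47 to 17.22, 15.66 to 16.55 and 18.23 to 18.87.

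The median shift for serum starvation was -1.54 with equal fraction totals, -0.306 with ERCC scaling and -1.19 without centring. For amino acid starvation it was -2.0 with equal fraction totals, 0.0394 with log2 weights and -2.18 without centring. Between the starvations it was 0.0288 with log2 weights and -0.969 without centring. With equal fraction totals 9 enzymes met the rule as lower in each starvation, beside 13.1% of all tested genes after serum starvation and 16.0% after amino acid starvation. With equal totals and no centring, a setting that was not planned, 3 were lower in each, beside 1.56% and 1.72% of genes. On that setting 1 was higher in each, beside 72.1% and 74.8% of genes. With log2 weights 0 were lower and 0 higher in each, beside at most 0.652% of genes. Without centring 6 were lower after serum starvation, 9 after amino acid starvation and 4 between the starvations, with 0 higher in either starvation; the shares of all tested genes that were lower were 69.2%, 86.4% and 7.75%. Under the median fraction of a gene's signal 1 was lower after serum starvation (16.7% of genes), where LDHB lost its call (-0.705), ALDOA lost its call after amino acid starvation (-0.586), and 2, GAPDH (-1.01) and LDHB (-1.77), were lower between the starvations (3.71% of genes). Under a rule of 2 fractions 1 was lower after serum starvation and 2 after amino acid starvation, with 0 higher in either, beside 2.63% and 2.43% of genes that were lower.

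For serum starvation, equal fraction totals turned the shifts of PGK1 (-1.43), PKM (-1.3), LDHA (-1.35) and PGAM1 (-1.52), and no centring turned PGK1 (-1.01). For amino acid starvation, equal fraction totals turned PGK1 (-1.51) and PGAM1 (-2.0), and no centring turned PGK1 (-1.51) and PGAM1 (-1.67). With equal fraction totals and no centring, PGK1 (0.111), PKM (0.246), LDHA (0.197) and PGAM1 (0.0277) kept their deposited sign after serum starvation. After amino acid starvation PGK1 kept it on that setting (0.218) and PGAM1 did not (-0.279). When single fractions were left out, GAPDH kept between -4.07 and -3.14 after serum starvation and between -4.34 and -3.54 after amino acid starvation, LDHB between -1.89 and -1.07 and between -2.74 and -1.84, and TPI1 between 1.37 and 1.87 and between 1.55 and 2.05. ALDOA missed the rule after amino acid starvation without fraction 9 (-0.899), and GPI met it after serum starvation without fraction 18, 19 or 20 (-1.14 to -1.09).

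The median log2 level ratio for serum starvation was 0.372 with equal fraction totals, -0.0308 with ERCC scaling, -0.508 without centring, -0.228 with a pseudocount of 10 and -0.152 without the filter. For amino acid starvation, in that order of settings, it was 0.37, -0.152, -0.793, -0.424 and -0.334, and between the starvations -0.00149, -0.046, -0.188, -0.0677 and -0.0625. Leaving out single fractions gave -0.162 to -0.0359, -0.296 to -0.0158 and -0.0355 to 0.0483. The GAPDH level met its rule without fraction 20 or 21 in either starvation, at 1.07 to 1.31, with equal fraction totals (1.11 and 1.0), and without fraction 19 after amino acid starvation, at 1.03. The cause of these changes was not tested. Depth is unknown, so no counting error limits could be set.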
